A study of Homo sapiens with 30 samples.

Results

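The regions described here were the promoter MYC peaks that appeared in EGFP replicate 2 only. They were MYC ChIP-Seq peaks of G401 cells expressing EGFP that were listed in replicate 2, overlapped no peak of replicate 1 by at least 1 bp, and had a summit within 1 kb of a transcript start of the PRO-Seq table. Of the 5396 MYC peaks of EGFP replicate 2, 3613 met the rule. A further 741 promoter peaks overlapped a replicate 1 peak ("shared promoter" peaks), 886 replicate 2-only peaks lay farther from every start ("distal"), and 156 distal peaks were shared. Replicate 1 had 940 peaks in all. The 3613 peaks were nearest to 3395 genes, and 45 of these genes also had a shared promoter peak and were counted with that class, which left 3350 genes ("replicate 2-only genes"). The regions were chosen by their presence in the EGFP peak lists and their distance to a start, so their number and enrichment are given as a description, with no test.

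G401 is a rhabdoid tumor cell line that lacks the SMARCB1 protein SNF5, a core subunit of the SWI/SNF (BAF) chromatin remodeling complex. Cells were transduced with lentiviral vectors carrying a tetracycline-inducible construct, selected with G418 with no cloning step described, and all received doxycycline at 1 μg/ml for 24 h. EGFP was the control, SNF5 restored the missing subunit, and OMOMYC is a mutant MYC leucine zipper protein that interferes with MYC. MYC ChIP-Seq had 2 samples for EGFP and 2 for SNF5, and PRO-Seq and ATAC-Seq had 3 for each construct.

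MYC pairs with MAX to bind DNA at the E-box CACGTG and its variants, and in most cells it is found at the promoters of actively transcribed genes. It is best known there for genes of ribosome production, translation, mitochondria, nucleotide synthesis and the cell cycle. PRO-Seq maps engaged RNA polymerase by nuclear run-on. Reads near the start mostly come from polymerase paused after initiation, reads in the gene body come from elongating polymerase, and the ratio of their densities is the pausing index.

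In the peak lists, fold enrichment is the peak's signal over its local background as the peak caller reported it. The median was 4.94-fold (quartiles 4.25 and 5.90, range 2.46 to 12.6) for the replicate 2-only promoter peaks, 8.39-fold for the shared promoter peaks and 4.79-fold for the distal replicate 2-only peaks. The replicate 2-only promoter peaks were also narrower, with a median width of 326 bp against 604 bp, and lay as close to a start, at a median of 141 bp against 156 bp. The ranges overlapped. In all, 108 of the 3613 peaks (2.99%) reached the shared promoter median, 51 shared promoter peaks (6.88%) were under the replicate 2-only median, and 250 of the 741 most enriched promoter peaks were absent from replicate 1. The lists carry no read counts. The study's supplement gives more reads for replicate 2 than for replicate 1, and the part of depth in the difference between 940 and 5396 peaks was not tested.

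The 10 most enriched regions were at PPP2R3B (12.6-fold), GTF3C6 (12.3-fold), MAP4 (12.3-fold), DARS (12.2-fold), RNH1 (11.02-fold), MARS2 (10.8-fold), SCAND1 (10.7-fold), LOC100134713 (10.7-fold), SMEK1 (10.7-fold) and ICAM5 (10.5-fold). GTF3C6 is a subunit of the RNA polymerase III factor TFIIIC, MAP4 binds microtubules, DARS and MARS2 are the cytosolic aspartyl- and mitochondrial methionyl-tRNA synthetases, and RNH1 inhibits ribonucleases. PPP2R3B lies in sequence that X and Y share, where 2 of the peaks are copies of each other, so they count as 1 region of the genome. At the edge of the rule, the peaks of SLC35C1 (992 bp from the start), HES1 (994 bp) and CARM1 (1000 bp) were just inside, and those of SFPQ (1001 bp), SLC25A1 (1008 bp) and LUC7L2 (1013 bp) just outside. The peaks of ATF4 (71 bp from a replicate 1 peak) and TYSND1 (91 bp) were kept, while TAF6L (9 bp of overlap) and DCK (54 bp) were left out. Of all the regions, 48 lay within 500 bp of a replicate 1 peak.

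The sequences below show the motif nearest the summit in the most enriched regions, read from hg19 (GRCh37) on the plus strand, 5′ to 3′. Capitals mark the E-box or its variant, the named feature is that of the GENCODE annotation at the summit, and windows that touch a UTR or lie past the RefSeq start are held to 30 bases. The first 6 are the most enriched regions with CACGTG within 100 bp of the summit.
GTF3C6, chr6:111279755-111279784, outside GENCODE transcripts and across the RefSeq start: gtggcgagtctcCACGTGggtaccggcgct
RNH1, chr11:506780-506809, UTR: gggcttgacggcCACGTGaggacgaaccac
MARS2, chr2:198570070-198570099, UTR: atgcgcctctcaCACGTGctgtcagaacgc
ICAM5, chr19:10399950-10400030, outside transcripts and upstream of the start: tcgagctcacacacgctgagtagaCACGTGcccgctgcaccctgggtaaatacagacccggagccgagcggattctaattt
ASPSCR1, chr17:79935497-79935526, coding exon: ccggcggcgggtCACGTGagcggaaaatgg
TSN, chr2:122512985-122513065, intron, upstream of the RefSeq start: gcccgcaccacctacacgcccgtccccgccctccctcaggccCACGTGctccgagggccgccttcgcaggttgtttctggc

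The next is the most enriched region that lacked CACGTG within 100 bp and had reference sequence, shown with the nearest variant.
MAP4, chr3:48130726-48130755, UTR: agagtcggcgcaCACGCGgaccgggccacc

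The motif lay 6 bp from the summit at RNH1, 5 bp at TSN, 33 bp at MAP4 and 83 bp at ASPSCR1, measured from its center.

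CACGTG was found within 100 bp of the summit in 651 of the 3609 regions with reference sequence (18.04%, exact 95% interval 16.8 to 19.3%). The shared promoter peaks held it in 51.01% (47.4 to 54.7%) and the distal replicate 2-only peaks in 31.7%. Windows of the same length centered on transcript starts differ in position from those at summits. At the nearest starts, 10.2% of the replicate 2-only promoter regions and 21.9% of the shared ones held it. Starts of transcribed genes without a MYC peak held it in 4.36%, and all starts in 5.94%. The variant CACGCG was at 28.0% of the replicate 2-only promoter summits and 35.9% of the shared promoter summits. It was at 20.2% of the starts nearest the replicate 2-only promoter regions and 9.15% of transcribed starts without a peak. Median GC content was 69.7% in the replicate 2-only regions, 69.2% in the shared promoter regions and 65.7% at transcribed starts without a peak. CAGCTG, an E-box that MYC is not known to prefer, was in 10.2% of the regions and 13.5% of transcribed starts without a peak. All motifs read on both strands, and a match describes the sequence and not a bound site.

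The E-boxes were concentrated at the summits. Within 20 bp of the summit, CACGTG occurred 3.01 times per 20-bp bin per 100 regions, against 0.328 times at 300 to 500 bp, a ratio of 9.15. The same ratio was 22.8 for shared promoter peaks (12.3 against 0.54) and 13.8 for distal replicate 2-only peaks. For CACGCG it was 5.21 in the replicate 2-only promoter regions and 6.4 in the shared ones. In 4 groups of about equal size by fold enrichment, from lowest to highest, 13.2%, 17.1%, 16.4% and 25.5% of the regions held CACGTG. At a matched enrichment of 8 to 10-fold, 31.1% of 135 replicate 2-only promoter regions held it (23.4 to 39.6%) and 104 of 208 shared ones (43.01 to 56.99%).

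**Figure D1:**
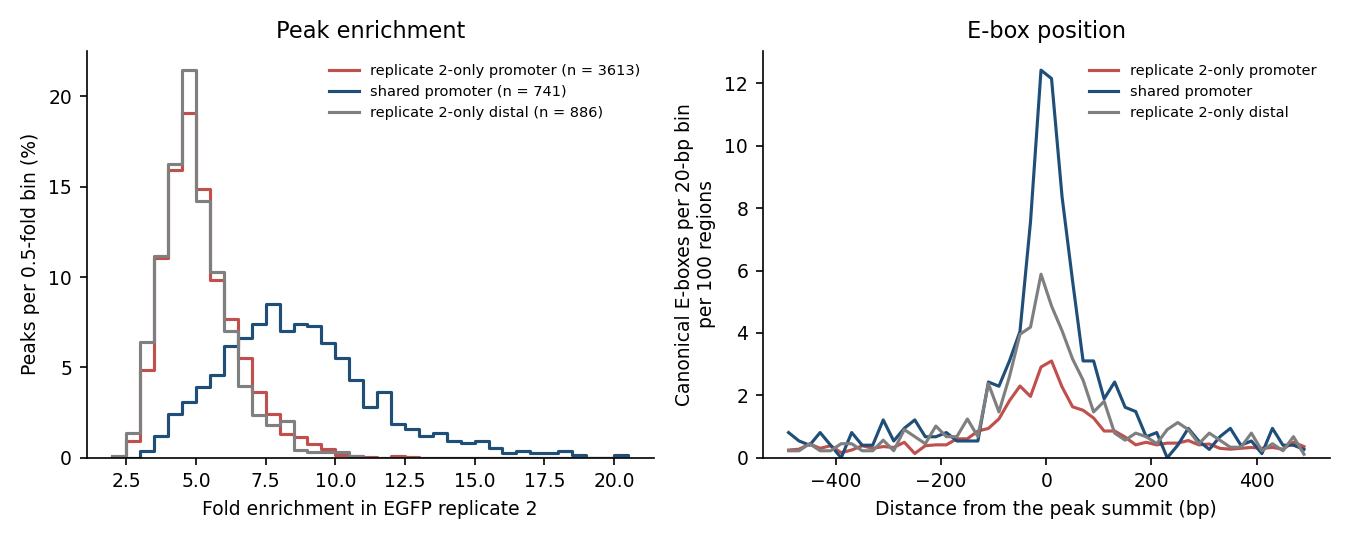
Left, share of peaks (%) in each 0.5-fold bin of fold enrichment in EGFP replicate 2, for 3613 replicate 2-only promoter, 741 shared promoter and 886 distal replicate 2-only peaks. Right, canonical E-boxes per 20-bp bin per 100 regions against distance from the summit (bp); the replicate 2-only promoter line peaks near 3.01 and the shared promoter line near 12.3, and beyond 300 bp they stay at or below 0.499 and 1.22.

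By GENCODE, 32.7% of the summits fell in a UTR, 24.6% in an intron, 23.9% outside transcripts, 10.5% in a coding exon and 8.39% in an exon of a noncoding transcript. The RefSeq start was upstream of the summit in 54.9% of the regions. In 603 regions (16.7%), 2 or more genes started within 1 kb, so the nearest gene is not the only candidate.

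The SNF5 peak lists held almost no MYC peaks in these regions. By the rule, EGFP replicate 1 held none there either, so the absence could not be assigned to SNF5. Of the 3613, 2 (0.0554%, exact interval 0.00671 to 0.200%) overlapped a peak of SNF5 replicate 1, which lists 137 peaks (0.918% of regions overlapped an SNF5 peak when only a reciprocal overlap of 50% with a replicate 1 peak left a region out), and 0 overlapped any of the 27 peaks of SNF5 replicate 2 (exact upper bound 0.102%). These were MTHFD1, an enzyme of one-carbon metabolism (7.75-fold with EGFP, 4.32-fold with SNF5), and RPL35A, a ribosomal protein of the large subunit (7.17-fold and 5.63-fold). Among shared promoter peaks, 105 of 741 (14.2%) overlapped an SNF5 peak. At 8 to 10-fold enrichment the counts were 0 of 135 against 20 of 208 (9.62%). Shared peaks were chosen by a peak in EGFP replicate 1 as well, so the selection enters both contrasts. Intervals on regions cover counting only, since all regions of a list come from 1 library. A peak call passes or fails a threshold, so an absent peak is not a measure of lost binding.

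The ATAC-Seq lists show open chromatin at these genes with every construct. Symbols matched a GRCh38 RefSeq start for 2761 of the 3350 genes, and 89.3% of them had an ATAC peak within 1 kb of it in at least 1 EGFP sample, against 90.2% of shared promoter genes and 38.5% of genes without a MYC peak. The share was 78.99%, 87.5% and 67.1% in the 3 EGFP samples, 64.5%, 90.7% and 72.9% with OMOMYC, and 92.9%, 90.9% and 85.6% with SNF5. The OMOMYC samples spanned the EGFP range, and 2 of 3 SNF5 samples were above it. The SNF5 lists were also longer than the EGFP lists, with 22722 to 33596 peaks against 9208 to 17817, and the OMOMYC lists held 7260 to 23684. A peak was present in all SNF5 and no EGFP samples at 33 of the genes, among them RPA1 (single-stranded DNA binding in replication), RXRA (a nuclear receptor) and SREBF1 (a regulator of lipid synthesis). The part of list length in these 33 was not tested.

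Many of the genes have housekeeping functions. Of all 20367 symbols of the PRO-Seq table, 16.4% were replicate 2-only genes and 3.63% shared promoter genes. The replicate 2-only class held 53.7% of 82 splicing factors (shared 14.6%), 53.1% of 32 mitochondrial import and chaperone genes (21.9%), 47.4% of 38 aminoacyl-tRNA synthetases (21.1%), 46.1% of 76 mitochondrial ribosomal proteins (10.5%), 33.3% of 93 oxidative phosphorylation genes (3.23%) and 31.9% of 47 DNA replication genes (4.26%). For some other groups the shared class held more. Of 85 cytosolic ribosomal proteins 34 were replicate 2-only and 41 shared, and of 106 nucleolar ribosome biogenesis genes 37 and 50. Of 12 snoRNA host genes the counts were 3 and 6, and of 15 chaperonin and prefoldin genes 4 and 5. Zinc finger genes, at 17.5% of 587, were near the share of all symbols. These lists hold mostly transcribed genes, and no set test was made.

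PRO-Seq gene body totals were 28444943 to 46957634 reads per sample and promoter-proximal totals 518900 to 3386528, lowest in replicate 1 of every construct. SMARCB1, the gene of SNF5, had 1 to 6 gene body reads in the EGFP samples, 2 to 5 with OMOMYC and 2870 to 4467 with SNF5, as labeled. Most markers of other cells were low: PTPRC, CD3E and ALB had 0 to 9 reads, EPCAM 14 to 58 and CDH5 6 to 129. CDH1 had 81 to 1092, highest in replicate 3 of each construct (974, 796 and 1092). Raw CDH1 reads were higher with SNF5 than EGFP in each pair (81, 105 and 974 to 252, 385 and 1092). The same held for CDH5 (6, 44 and 37 to 27, 129 and 75), while EPCAM went from 21, 22 and 58 to 26, 14 and 45. PECAM1 was listed at 0. Of the 3350 genes, 106 (3.16%) were listed at 0 gene body reads in every sample, 103 of them at the promoter as well, including PGK1, UBA1, RPS9, DDX5, RPL10 and MLL. Since these include genes that every cell uses, such a 0 was not read as silence. A mean of 10 reads was required for a test, and 3211 of the 3350 genes passed in gene bodies, 3145 at promoters and 3138 for both.

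In EGFP cells, the replicate 2-only genes had a median gene body density of 2.33, 2.18 and 2.26 reads per kb per 1000000 scaled reads in replicates 1 to 3. Shared promoter genes had 3.40, 3.19 and 3.42, and genes without a MYC peak, many of them silent, 0.195, 0.226 and 0.202. These density medians leave out genes listed at 0 gene body reads in every sample. There were 106 replicate 2-only genes, 31 shared promoter genes and 1629 genes without a MYC peak (10.4%) of this kind. The median pausing index of the replicate 2-only genes was 9.07, 45.7 and 27.5 with EGFP, 12.1, 55.7 and 26 with OMOMYC, and 10.1, 48.7 and 25.2 with SNF5. The index thus differed far more between replicate numbers than between constructs, and it was above EGFP in replicates 1 and 2 and below it in replicate 3 for both constructs. Values were therefore compared within replicate numbers, by edgeR's quasi-likelihood test with the replicate as a block and Benjamini-Hochberg adjustment over all genes tested. A lower density in bulk cells can come from fewer transcribing cells or from less transcription per cell, which cannot be told apart.

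With SNF5, gene body transcription of the replicate 2-only genes fell more often than it rose, by a small amount. At an adjusted p under 0.05, 882 of 3211 genes were lower (27.5%, against 17.1% of all 15060 genes tested) and 227 higher (7.07% against 17.3%). Of shared promoter genes 45.2% were lower and 2.42% higher, and of genes without a MYC peak 11.5% and 22.1%. The median log2 fold change was -0.13 for the replicate 2-only genes, -0.21 for shared promoter genes, 0.04 for genes without a MYC peak and -0.03 for all genes tested. Each replicate pair gave this order: the replicate 2-only median log2 ratio to the EGFP sample was -0.11, -0.16 and -0.09, with the shared class below and the class without a peak above it in each pair. The counts depended on the pairs used, as 67 genes were lower without replicate 2, 153 without replicate 1 and 1627 without replicate 3. Over all genes tested, the same fits called 317, 484 and 4827 lower. Of the 882, 54 were called in each of these fits. All 882 kept their sign, but the full fit that picked them shares samples with these fits. A kept sign is therefore not an independent check.

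With OMOMYC, 260 of the 3211 genes were lower in gene bodies (8.10%, against 4.52% of all genes tested) and 68 higher (2.12% against 3.98%). Shared promoter genes were lower in 21.2%. The median log2 fold change was -0.08 for the replicate 2-only genes, -0.16 for shared promoter genes, 0.05 without a MYC peak and close to 0 over all genes tested. The median ratio to EGFP was -0.09, -0.11 and -0.02 in replicates 1 to 3, so replicate 3 moved least. Without replicate 1 or without replicate 2, edgeR called 0 of these genes in either direction (273 and 243 were lower, and 65 and 105 higher, at an unadjusted p under 0.05), and without replicate 3 it called 1354 lower and 358 higher. DESeq2 called 414 lower and 112 higher in all samples. Over all genes, the fit without replicate 3 called 3765 lower and 2987 higher of 14939. DESeq2 called 1107 lower and 1001 higher of 15060. SNF5 and OMOMYC were compared with the same EGFP samples, so the 2 comparisons are not independent.

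**Figure D2:**
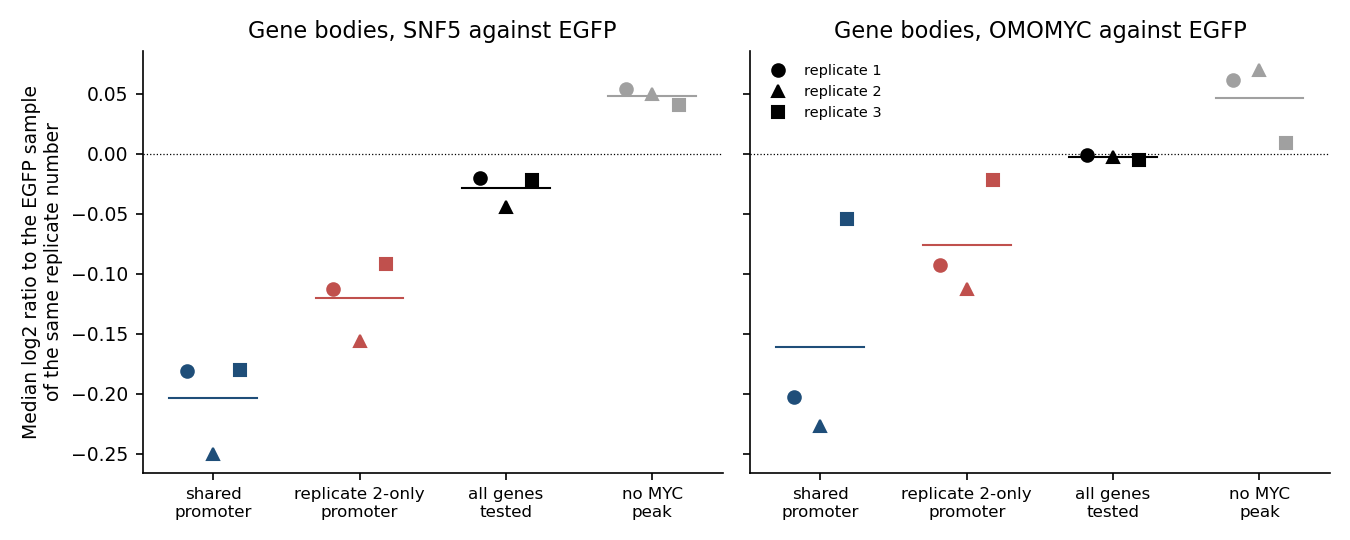
Median log2 ratio of gene body signal to the EGFP sample of the same replicate number, for SNF5 (left) and OMOMYC (right), by MYC peak class. Symbols are the 3 replicate pairs and bars their mean; the replicate 2-only genes lie between shared promoter genes and genes without a MYC peak in every pair, at -0.16 to -0.09 with SNF5 and -0.11 to -0.02 with OMOMYC.

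The direction of change went with gene length. When the replicate 2-only genes were cut into 4 equal groups of gene body length at 10789, 27283 and 60132 bp, 36.6%, 32.2%, 25.2% and 15.9% were lower with SNF5 from shortest to longest, and 1.12%, 3.74%, 6.35% and 17.1% higher. The median log2 fold change ran from -0.25 in the shortest group to -0.02 in the longest. Genes without a MYC peak, cut at the same lengths, were lower in 15.8% of the shortest and 7.25% of the longest and higher in 6.36% and 39.3%. At each length, the replicate 2-only genes had the larger share of falls and the smaller share of rises. The classes were not matched for transcription level. The median EGFP density of genes not called with SNF5 was 2.19 in the replicate 2-only class and 0.818 without a peak. For genes called higher it was 1.25 and 0.0844. The part of level in the difference between the classes was not tested. With OMOMYC, 12.5% of the shortest group were lower and 4.23% of the longest, while genes without a peak stayed at 1.84 to 2.45%. The replicate 2-only genes that were lower with SNF5 had a median gene body of 18754 bp and an EGFP density of 3.08, and those that were higher 82464 bp and 1.25. A cause of the relation to length was not tested.

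**Figure D3:**
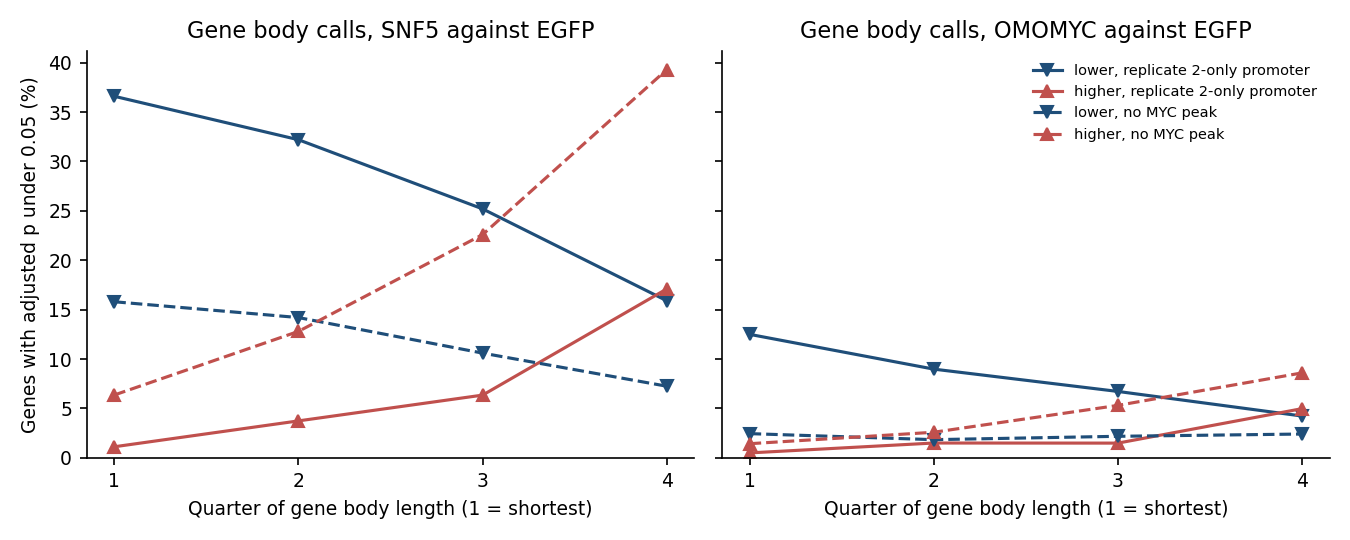
Share of genes (%) with a gene body change at an adjusted p under 0.05, lower or higher, by group of gene body length (4 equal groups of the replicate 2-only genes, from shortest to longest), for SNF5 (left) and OMOMYC (right). Solid lines are replicate 2-only genes and dashed lines genes without a MYC peak; falls decline with length from 36.6% to 15.9% and rises climb from 1.12% to 17.1% in the replicate 2-only genes with SNF5.

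The replicate 2-only genes were also split by E-box and by enrichment of the peak. With SNF5, 171 of 583 genes with CACGTG were lower and 711 of 2628 without it, at median log2 fold changes of -0.12 and -0.13. With OMOMYC the counts were 38 of 583 and 222 of 2628, at medians of -0.06 and -0.08. In the 4 groups of fold enrichment, from lowest to highest, the SNF5 median was -0.12, -0.10, -0.13 and -0.15, and the OMOMYC median -0.07, -0.07, -0.08 and -0.10.

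The largest gene body rises with SNF5 were at NCOA7, UBE2J1, LOC100506990, STOM and HES1. NCOA7, a nuclear receptor coactivator, had 84.3, 86.5 and 89.5 reads per 1000000 scaled reads (CPM) with EGFP and 225, 235 and 165 with SNF5 (log2 fold change 1.25, SE 0.10, adjusted p = 8.1e-05). UBE2J1, a ubiquitin-conjugating enzyme of the endoplasmic reticulum, went from 45.4, 50.4 and 38.3 to 107, 113 and 91.6 (1.22, SE 0.08, adjusted p = 3.47e-05). STOM, the membrane protein stomatin, went from 38.1, 36.7 and 37.6 to 71.3, 81.9 and 80.3 (1.05, SE 0.07, adjusted p = 2.64e-05). All SNF5 samples were above all EGFP samples at these 3 genes. HES1, a repressor downstream of Notch, went from 2.23, 2.99 and 1.99 to 4.33, 4.78 and 5.22 (1.02, adjusted p = 0.00588, and 0.0662 without replicate 1).

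The largest falls with SNF5 were at RIN1, RGS2, DCXR, POP7 and RAC3. RGS2, a regulator of G protein signaling, had 29.7, 38.7 and 59.5 CPM with EGFP and 15.6, 18.9 and 26.04 with SNF5 (-1.05, SE 0.14, adjusted p = 0.000777). RIN1, a Ras effector, went from 12.8, 18.1 and 18.6 to 7.02, 9.79 and 6.30 (-1.10, SE 0.16, adjusted p = 0.00139). POP7, a protein subunit of RNase P and RNase MRP, went from 5.21, 10.5 and 9.86 to 3.71, 4.12 and 4.37 (-1.01, adjusted p = 0.00457, and 0.0874 without replicate 2). The SNF5 and EGFP values did not overlap at these genes. DCXR fell by 1.02 (adjusted p = 0.014, and 0.0961 and 0.11 without replicates 1 and 2). RAC3 fell by 0.93 with SNF5 (adjusted p = 0.00188, and 0.0508 without replicate 2) and by 0.80 with OMOMYC (adjusted p = 0.0252). The gene bodies of all 5 were short, from 448 bp (POP7) to 3459 bp (RIN1).

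With OMOMYC the largest rises were at ABCA17P, SLC25A36, TWISTNB, ADAM9 and LOC100499227. SLC25A36, a mitochondrial nucleotide carrier, had 113, 107 and 88.9 CPM with EGFP and 205, 197 and 141 with OMOMYC (0.80, SE 0.06, adjusted p = 0.00131). ADAM9, a membrane metalloprotease, went from 334, 369 and 251 to 622, 658 and 383 (0.78, SE 0.06, adjusted p = 0.00131). TWISTNB, a subunit of RNA polymerase I, went from 21.03, 23.3 and 18.1 to 42.2, 42.8 and 25.8 (0.79, adjusted p = 0.0138). The largest falls were at LOC93622, THAP11, UBL5, TOMM5 and RAC3. TOMM5, a subunit of the mitochondrial import channel, went from 26.5, 42.4 and 27.6 to 14.9, 19.6 and 19.7 (-0.81, SE 0.11, adjusted p = 0.0146). The OMOMYC and EGFP values did not overlap at these 4 genes. Without replicate 1 or 2, the adjusted p of every gene named here was 0.132 or more.

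**Figure D4:**
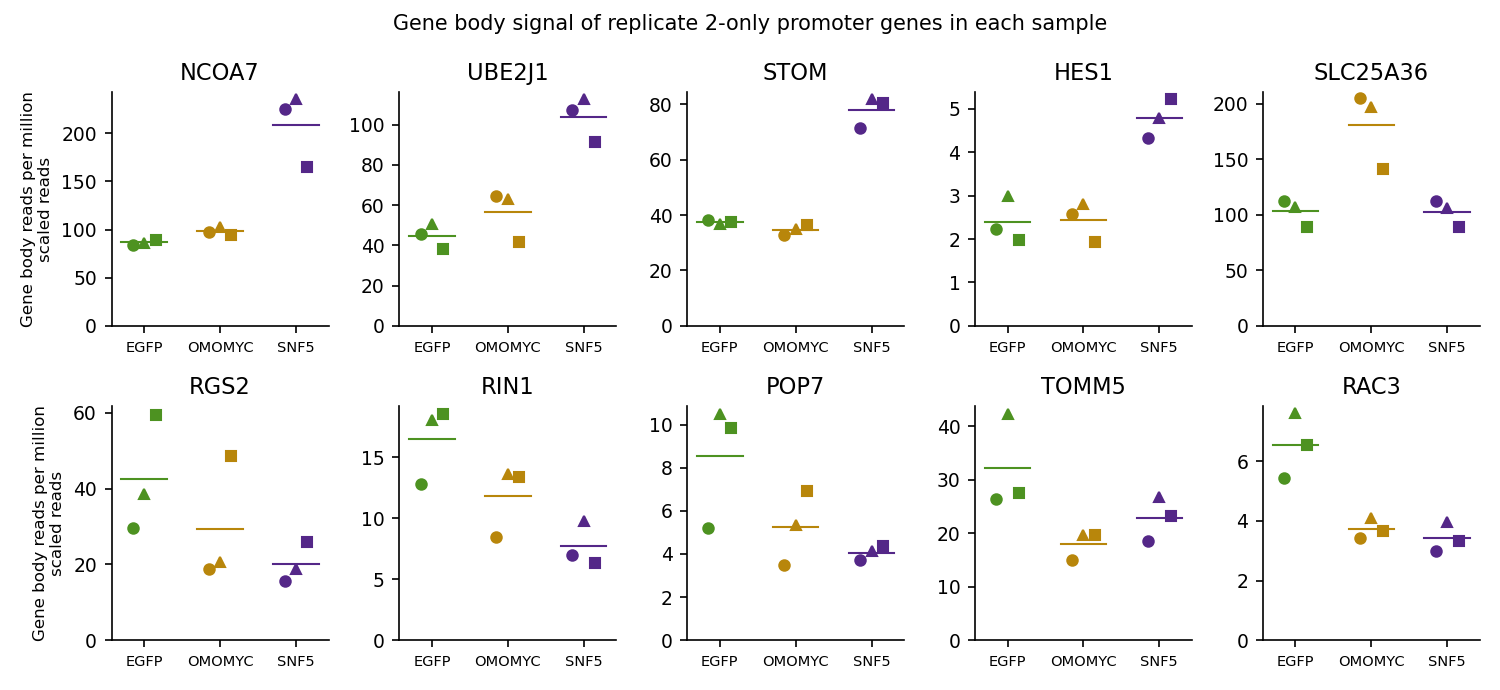
Gene body CPM (reads per 1000000 scaled reads) in each PRO-Seq sample for 10 of the replicate 2-only genes named here (circle, triangle and square are replicates 1, 2 and 3, and bars the mean of the construct; axes start at 0 and differ between genes). NCOA7, UBE2J1, STOM and HES1 are higher with SNF5, SLC25A36 with OMOMYC, and RGS2, RIN1, POP7, TOMM5 and RAC3 are lower with SNF5.

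The replicate 2-only genes of the translation machinery had negative gene body medians with both constructs. The counts of lower genes in the groups that follow stand against 27.5% of the replicate 2-only genes and 17.1% of all genes tested with SNF5, and 8.10% and 4.52% with OMOMYC. The counts of higher genes stand against 7.07% and 17.3% with SNF5, and 2.12% and 3.98% with OMOMYC. Of 29 cytosolic ribosomal protein genes tested, 6 were lower with SNF5 and 18 with OMOMYC, at medians of -0.19 and -0.42. RPS3A (10.4-fold peak) was lower with OMOMYC, at 66.7, 68.1 and 72.0 CPM against 96.3, 128 and 86.1 (-0.56, adjusted p = 0.0256), and had -0.26 with SNF5 (adjusted p = 0.085). RPL29 fell by 0.52 with OMOMYC (adjusted p = 0.0327), and RPL35A, which kept an SNF5 MYC peak, fell by 0.39 (adjusted p = 0.0257). Of 33 translation factor genes 14 were lower with SNF5 and 14 with OMOMYC, among them the elongation factor gene EEF2 (-0.26 and -0.32, adjusted p = 0.0129 and 0.0259). Of 17 aminoacyl-tRNA synthetases tested, 4 were lower with SNF5 and 3 with OMOMYC. Among these, DARS and MARS2, with the strongest peaks, were at 0.02 and 0.06 with SNF5 (adjusted p = 0.86 and 0.754).

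Of 36 nucleolar ribosome biogenesis genes tested, 16 were lower with SNF5 (median -0.23) and 8 with OMOMYC (median -0.16). GNL2, a nucleolar GTPase, went from 110, 107 and 104 CPM to 93.9, 76.6 and 92.6 with SNF5 (-0.29, adjusted p = 0.0126). Of 13 RNA polymerase subunit genes 7 were lower with SNF5 and 4 with OMOMYC, against 1 higher with OMOMYC, TWISTNB. POLR1C, shared by RNA polymerases I and III, went from 38.2, 32.7 and 42.5 to 24.0, 21.1 and 32.7 with SNF5 (-0.56, adjusted p = 0.00434) and to 23.2, 16.8 and 32.7 with OMOMYC (-0.68, adjusted p = 0.0172). POLR3G, of RNA polymerase III, fell by 0.52 with SNF5 (adjusted p = 0.00294). Of 42 splicing factor genes tested, 14 were lower with SNF5 and 9 with OMOMYC, at medians of -0.17 and -0.19.

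Of 15 DNA replication genes, 10 were lower with SNF5 and 6 with OMOMYC, at medians of -0.30 and -0.29. MCM2, of the replicative helicase, had 95.1, 73.0 and 80.0 CPM with EGFP, 73.2, 63.4 and 61.9 with SNF5 (-0.32, adjusted p = 0.0104) and 69.6, 61.5 and 71.2 with OMOMYC (-0.29, adjusted p = 0.0448). The OMOMYC values were below all EGFP values, and with SNF5 1 sample was just above the lowest EGFP value. POLD1, the catalytic subunit of DNA polymerase delta, fell by 0.28 with SNF5 (adjusted p = 0.0312). Of 27 mitosis and cell cycle genes, 3 were lower with SNF5 and 3 with OMOMYC, and CENPM, a centromere protein, was lower with both (-0.58 and -0.41, adjusted p = 0.0023 and 0.0357). Of 14 nucleotide and one-carbon genes 5 were lower with SNF5, among them TYMS (thymidylate synthase, -0.30, adjusted p = 0.0184) and MTHFD1 (-0.22, adjusted p = 0.0431), and 2 with OMOMYC.

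Among mitochondrial genes, against the same 27.5% of the class with SNF5 and 8.10% with OMOMYC, 10 of 30 oxidative phosphorylation genes, 8 of 34 ribosomal protein genes and 6 of 16 import genes were lower with SNF5, and 4, 2 and 5 with OMOMYC. UQCRFS1, the iron-sulfur subunit of complex III, was higher with OMOMYC (0.49, adjusted p = 0.0218). TOMM40, the import channel itself, went from 65.9, 39.9 and 66.4 to 48.2, 31.1 and 52.7 with SNF5 (-0.38, adjusted p = 0.00814). The EGFP and SNF5 values overlapped across replicates and were lower within each pair. Of 100 zinc finger genes 42 were lower with SNF5 and 6 with OMOMYC, at medians of -0.21 and -0.08. Fewer genes were lower with OMOMYC in the class as a whole as well. ZBTB24 fell by 0.31 with SNF5 (adjusted p = 0.00654).

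Of 41 ubiquitin pathway genes tested, 5 were higher and 4 lower with SNF5. Of the replicate 2-only genes 7.07% were higher, and of all genes tested 17.3%. Of 24 general transcription and Mediator genes tested, 3 were lower, and GTF3C6, with the strongest peak outside X and Y, had 31.4, 28.4 and 30.9 CPM with EGFP and 29.5, 27.5 and 29.3 with SNF5 (-0.07, adjusted p = 0.541). Of 20 nucleoporin and karyopherin genes tested 6 were lower with SNF5, among them the exportin XPO5 (-0.24, adjusted p = 0.0152). Of 10 proteasome genes 1 was lower, PSMB2 (-0.20, adjusted p = 0.028), of 4 chaperonin genes 2, CCT8 and TCP1, and of 3 snoRNA host genes 1, SNHG12 (-0.29, adjusted p = 0.0215). Of 8 lysosomal genes 2 were higher and 3 lower, with CTSA, cathepsin A, at -0.63 (adjusted p = 0.00197). Of 6 SWI/SNF subunit genes tested the ATPase gene SMARCA4 was lower (-0.18, adjusted p = 0.027). MAX, the partner of MYC, had -0.09 with SNF5 and -0.01 with OMOMYC (adjusted p = 0.209 and 0.901), and of 5 genes of its network MNT was lower with SNF5. None of the 6 replication-dependent histone genes listed was in the replicate 2-only class.

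At promoters few genes passed the test. The promoter-proximal count is the number of reads in the densest 50-bp window within 500 bp of the start, scaled by gene body totals. With SNF5, 50 of 3145 genes were lower (1.59%, against 1.67% of all 11241 genes tested) and 32 higher (1.02% against 2.62%), at a median log2 fold change of -0.10 against -0.05. With OMOMYC 45 were higher (1.43% against 1.58%) and 9 lower (0.286% against 0.169%), at a median of 0.10 against 0.12. The share that was higher with SNF5 was thus below that of all genes. It rests on 32 genes, and the others rest on 9 to 50. With OMOMYC the direction depended on scaling. Factors from the promoter-proximal counts themselves moved the OMOMYC median of all genes from 0.12 to -0.03. Then 28 of these genes were higher and 35 lower, against 115 and 106 of all genes tested. With SNF5 these factors gave 74 higher and 187 lower, against 454 and 587 of all genes tested. Falls outnumbered rises in the replicate 2-only genes under both scalings. Over all genes the balance turned with scaling, as the main scaling gave 295 higher and 188 lower. Without replicate 2, edgeR called HES1 alone as higher with SNF5 and 0 genes as lower with SNF5, higher with OMOMYC or lower with OMOMYC (110, 109 and 23 at an unadjusted p under 0.05). DESeq2 in all samples called 26 higher and 42 lower with SNF5 and 49 and 6 with OMOMYC. Over all genes, the fit without replicate 2 called 42 higher and 5 lower with SNF5 and 3 and 0 with OMOMYC. DESeq2 called 186 and 126 of all genes with SNF5 and 139 and 13 with OMOMYC.

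HES1 had 0.405, 6.21 and 1.77 promoter-proximal CPM with EGFP and 0.915, 17.3 and 6.25 with SNF5, higher in each pair (1.56, SE 0.24, adjusted p = 5.88e-05). TUFM, the mitochondrial elongation factor Tu, went from 2.26, 8.39 and 5.97 to 1.26, 3.11 and 2.40 with SNF5 (-1.22, SE 0.21, adjusted p = 0.00045) and to 1.27, 3.78 and 2.30 with OMOMYC (-1.14, SE 0.22, adjusted p = 0.00403). It was lower in each pair with either construct. DRG2, a GTP-binding protein, went from 0.579, 43.3 and 5.19 to 0.445, 11.04 and 2.85 with SNF5 (-1.28, adjusted p = 0.00246), and its level was set largely by replicate 2. The other largest changes with SNF5 were rises at BMP8B, JARID2, LOC728613 and SLC35C1 and falls at FGFBP3, CEMP1 and CSTB.

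With OMOMYC the largest promoter-proximal rises were at ANKRD37, ALG3, ITPR1, RAPGEF3 and MMAB. ALG3, a mannosyltransferase of the endoplasmic reticulum, went from 0.926, 6.91 and 2.79 to 1.53, 22.4 and 9.19 (1.48, SE 0.24, adjusted p = 0.000609), and ANKRD37 from 0.405, 3.05 and 0.627 to 1.10, 13.96 and 1.52 (1.76, SE 0.26, adjusted p = 0.000173). Both were higher in each pair, with values that overlapped across replicates. The falls, beside TUFM and DRG2, were at MMACHC, PGAM1 and LOC100125556. Without replicate 2 none of these OMOMYC changes passed the test (adjusted p of 0.432 or more).

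Few of the replicate 2-only genes had a changed pausing index. With SNF5 it was higher at 61 of 3138 genes (1.94%, against 2.02% of the 11171 genes tested) and lower at 35 (1.12% against 1.64%), shares at or below those of all genes, and without replicate 1 the counts turned to 74 higher and 88 lower. Over all genes the counts turned as well, from 226 higher and 183 lower to 274 and 346. With OMOMYC it was higher at 89 (2.84% against 2.18%) and lower at 2 (0.0637% against 0.0806%), and shared promoter genes were higher in 7.60%. The median log2 change with OMOMYC was 0.18 against 0.14 over all genes, so most of it was common to all genes, and 0.26 in the shared class. With SNF5 the medians were 0.03 and 0.01. Without replicate 2, edgeR called 0 of these genes (104 and 79 with SNF5 and 149 and 17 with OMOMYC were higher and lower at an unadjusted p under 0.05), and DESeq2 in all samples called 14 and 5 with SNF5 and 25 and 0 with OMOMYC (18 lower at an unadjusted p under 0.05). Over all genes, the fit without replicate 2 called 2 and 2 with SNF5 and 0 and 0 with OMOMYC. DESeq2 called 51 and 50 of all genes with SNF5 and 68 and 0 with OMOMYC.

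TUBA1B, an alpha-tubulin, had a higher pausing index with SNF5 (log2 change 1.39, SE 0.23, adjusted p = 9.39e-05). Its promoter-proximal CPM went from 3.85, 11.1 and 7.50 to 4.87, 35.2 and 15.8, while its gene body reads went from 58.6, 64.9 and 54.1 to 49.4, 43.9 and 47.5. NCOA7 had a lower index, as its gene body signal rose and its promoter-proximal reads were 0.376, 6.74 and 2.05 with EGFP and 0.371, 6.67 and 1.68 with SNF5 (adjusted p = 0.000547). LOC728613 and PKD1 were the other large rises with SNF5, and DRG2 and WBP2 the other falls. With OMOMYC the index rose most at ALG3 (1.67, adjusted p = 4.93e-05), ITPR1 and RAPGEF3 and fell at DRG2 and POC1A. Among the cytosolic ribosomal protein genes 4 of 29 had a higher index with OMOMYC, among them RPL39 (1.12, adjusted p = 0.00486) and RPL4 (0.79, adjusted p = 0.0281).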

How the data were processed

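The work started from the deposited processed files. MYC ChIP-Seq peaks had been called by the authors in each sample on hg19 (MACS2, q-value 0.01), and ATAC-Seq peaks on hg38 (q-value 0.001). The deposited peak lists give a fold ratio over local background, −log10 p and −log10 q. Each OMOMYC ChIP list holds 1 placeholder line and was counted as no peak. For PRO-Seq the authors' NRSA table on hg19 gives raw counts per transcript in gene bodies (from 1 kb after the start) and promoter windows. Its density columns, a signal in reads per bp deposited beside the counts, gave gene body lengths only.

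The transcript with most gene body reads stood for each symbol. Counts were tested with edgeR 4.0.16 (R 4.3.3) in 1 fit of all 9 samples, with gene body totals times relative log expression factors as library sizes. The standard error is the fold change divided by the root of the F statistic. The change in pausing index was tested as a region by construct interaction, with each sample as a further term. The threshold was an adjusted p of 0.05. Replicate number was a block: deviations of same-numbered samples correlated at 0.753 to 0.882 in gene bodies and 0.689 to 0.849 at promoters, those of other pairs at 0.126 or less. The study describes the replicates as independent experiments, while the labels give only their numbers. The scripts were tested on simulated data. DESeq2 1.42.0, other scalings, filters, designs and definitions of the regions were alternatives. Per replicate ratios add 0.1 CPM.

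Motif windows and features used GRCh37 and GENCODE v44. Intervals are exact (Clopper-Pearson, 95%). The named genes were those with the 10 strongest peaks, the 5 largest rises and 5 largest falls among those passing the test for each construct and region (3 and 3 for the pausing index), and up to 4 with the strongest peaks per gene list, printed in part; others were named after their values were seen. The regions and lists were chosen with earlier results of these data known. A marker gene and some sequence windows are not reported here.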

Additional observations from a re-analysis of the deposited data

How the results depend on the processing

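Counts below are of replicate 2-only genes, as higher and lower. TMM scaling, a 500-bp window and counting every start within 1 kb kept all 12 counts within 1.5 times. The replicate block decided most calls: with no replicate block, edgeR gave 13 and 1 for SNF5 gene bodies and 0 for the other 10 counts (58 and 184 at an unadjusted p under 0.05 for OMOMYC gene bodies, and 0 or 1 elsewhere). Over all genes, it gave 216 and 7 for SNF5 gene bodies and 1 and 0 for OMOMYC gene bodies. DESeq2 gave 112 and 414 for OMOMYC gene bodies and 14 and 5 (SNF5) and 25 and 0 (OMOMYC) for the pausing index. With only the 2 groups compared, 566 were lower with SNF5 and 111 higher with OMOMYC in gene bodies, 33 lower with SNF5 at promoters, and the pausing index gave 27 and 10 (SNF5) and 51 and 0 (OMOMYC, 36 lower at an unadjusted p under 0.05). Without the filter, SNF5 promoters gave 49 and 82. Factors from promoter-proximal counts gave 74 and 187 (SNF5) and 28 and 35 (OMOMYC), against 454 and 587 and 115 and 106 over all genes. A −log10 q of at least 5 left 43 higher with OMOMYC in gene bodies, 20 (SNF5) and 28 (OMOMYC) higher at promoters and 1 lower pausing index with OMOMYC. The cause of these differences was not tested, except that a stricter peak threshold leaves fewer genes.

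Leaving out 1 replicate number gave 63 to 405 higher and 67 to 1627 lower for SNF5 gene bodies, 0 to 358 and 0 to 1354 for OMOMYC gene bodies, 1 to 58 and 0 to 204 (SNF5) and 0 to 177 and 0 to 19 (OMOMYC) at promoters, and 0 to 81 and 0 to 88 (SNF5) and 0 to 342 and 0 to 6 (OMOMYC) for the pausing index, where the zeros had 17 to 273 genes at an unadjusted p under 0.05. Over all genes, these fits gave 1106 to 3765 higher and 317 to 4827 lower for SNF5 gene bodies. For OMOMYC gene bodies they gave 2 to 2987 and 0 to 3765. Every called gene kept its sign, in fits that share samples with the fit that picked it. Of the gene body calls with SNF5, 62 of 227 higher and 54 of 882 lower were called in each of these fits. The number of regions stayed between 2698 and 4031. Reciprocal overlap of 50% raised the share with an SNF5 peak to 0.918% and with CACGTG to 20.99%. The CACGTG share was 19.98% at a −log10 q of at least 5, 11.3% within 50 bp and 24.8% within 250 bp. Promoter-proximal totals were lowest in replicate 1.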
